A study of Rattus norvegicus with 12 samples.

Results

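Transcription factors of the fat cell programme, Pparg (ENSRNOG00000008839), Cebpa (ENSRNOG00000010918) and Cebpb (ENSRNOG00000057347), were followed in fibro-adipogenic progenitors of rat soleus muscle. These 3 genes of the 32622 in the count table were given by name and identifier, with earlier results of these data known, and all 3 passed the filter on low counts, which kept 13215 genes. Fibro-adipogenic progenitors are stromal cells that lie between muscle fibres and can become fat cells or fibroblasts. Poly(A) RNA of primary cultures (Rattus norvegicus) was sequenced with reads of 51 bp in 6 groups of 2 libraries. At day 3 of adipogenic induction there were cells of control rats (C), of rats after 7 days of hindlimb suspension (HS7, 7-day cells) and of rats after 14 days of it (HS14, 14-day cells), and the same 3 kinds of cells were sequenced at day 0, before induction. In hindlimb suspension the hind legs bear no weight, which unloads the soleus. The medium for induction contained the phosphodiesterase inhibitor 3-isobutyl-1-methylxanthine (0.5 μM), the glucocorticoid dexamethasone (1 μM) and insulin (1 μM). The labels give no strain, sex or age, and they do not say how many animals or cultures a group came from, so that a difference between cultures and an effect of unloading cannot be told apart.

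Pparg encodes a nuclear receptor that binds DNA together with a retinoid X receptor and is the central regulator of fat cell formation. Cebpa and Cebpb encode bZIP factors of the C/EBP family. In mouse preadipocyte lines Cebpb acts early after induction and precedes Pparg and Cebpa, which then maintain each other and switch on genes of lipid storage. In muscle, fibro-adipogenic progenitors are known as the source of fat that forms between fibres. Cebpa and Cebpb are genes without introns, and Pparg is transcribed from more than 1 start. The counts sum all transcripts of a gene, so the starts of Pparg and the protein isoforms made from a single Cebpa or Cebpb mRNA cannot be told apart.

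The promoter windows of the 3 genes are shown because Pparg and Cebpa moved together across the groups while Cebpb did not. Each runs from 250 bases before to 50 bases after an annotated start. The RefSeq table of promoters (build GRCr8) matched all 3 genes by symbol and held 4 windows for them, all on the + strand of that build. Capitals mark the C/EBP core TTGCG, the core TGACG of the cAMP response element, and the TATA box TATAAA, each on either strand.
Pparg, upstream start, chr4:150096808-150097107: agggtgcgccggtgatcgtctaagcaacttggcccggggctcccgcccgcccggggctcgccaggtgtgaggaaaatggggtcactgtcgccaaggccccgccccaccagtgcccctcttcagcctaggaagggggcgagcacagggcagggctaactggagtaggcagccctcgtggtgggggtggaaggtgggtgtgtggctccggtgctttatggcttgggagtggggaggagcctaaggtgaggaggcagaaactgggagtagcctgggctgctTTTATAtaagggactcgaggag
Pparg, downstream start, chr4:150154522-150154821: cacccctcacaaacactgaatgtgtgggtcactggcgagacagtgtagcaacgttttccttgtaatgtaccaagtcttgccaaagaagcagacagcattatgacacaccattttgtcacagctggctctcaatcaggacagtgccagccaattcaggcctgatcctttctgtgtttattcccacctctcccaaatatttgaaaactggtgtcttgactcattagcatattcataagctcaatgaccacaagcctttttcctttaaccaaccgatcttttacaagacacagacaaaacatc
Cebpa, chr1:96896334-96896633: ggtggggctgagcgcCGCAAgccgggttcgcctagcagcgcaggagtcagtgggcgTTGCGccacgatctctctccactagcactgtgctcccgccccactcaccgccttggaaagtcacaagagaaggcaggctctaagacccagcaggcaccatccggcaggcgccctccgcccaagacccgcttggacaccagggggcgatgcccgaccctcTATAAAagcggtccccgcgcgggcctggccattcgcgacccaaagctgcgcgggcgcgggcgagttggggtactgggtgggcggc
Cebpb, chr3:176816755-176817054: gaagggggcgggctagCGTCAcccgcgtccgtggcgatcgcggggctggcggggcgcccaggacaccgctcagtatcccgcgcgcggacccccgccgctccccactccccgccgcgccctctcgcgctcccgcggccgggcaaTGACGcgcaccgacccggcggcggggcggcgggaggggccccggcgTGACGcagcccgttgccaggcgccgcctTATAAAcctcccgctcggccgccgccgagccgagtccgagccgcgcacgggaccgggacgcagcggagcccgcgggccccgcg

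The windows differed in composition. G and C made up 81.0% of the Cebpb window, more than in 99.3% of the 33469 windows in the table, and 68.7% of the Cebpa window. For Pparg the share was 64.7% at the upstream start and 43.7% at the downstream start, against a median of 51.7% over all windows. The Cebpb window held 56 CG dinucleotides, the Cebpa window 28, and the Pparg windows 14 and 3, where the median window held 7.

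Motif matches also differed between the windows. Cebpa held 2 C/EBP cores, at -235 to -231 on the opposite strand and at -194 to -190 from the start, a motif found in 17.8% of all windows. Cebpb held 3 cores of the cAMP response element, at -234 to -230 on the opposite strand, -107 to -103 and -61 to -57. That motif occurred in 21.2% of all windows. Cebpa and Cebpb each had a TATA box, at -35 to -30 and at -33 to -28, which 14.2% of all windows held; the match in the upstream Pparg window lay after the start, at 29 to 34 on the opposite strand. None of the 4 windows held the C/EBP palindrome TTGCGCAA (0.170% of all windows), the full cAMP response element TGACGTCA (1.83%), the E-box CACGTG (6.42%), the glucocorticoid receptor core TGTTCT (20.7%) or the nuclear receptor core AGGTCA (16.2%), and so none held the PPAR response element, 2 such cores in the same direction with 1 base between them (0.0538%). The full C/EBP and cAMP response elements contain the cores, and a match is a stretch of letters, not a shown binding site. The cores were chosen with these windows in view, so their presence here is a description only. Both cores contain CG, of which the Cebpb window held 56 and the median window 7. The shares of all windows are for at least 1 match and are not matched for composition.

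**Figure D1:**
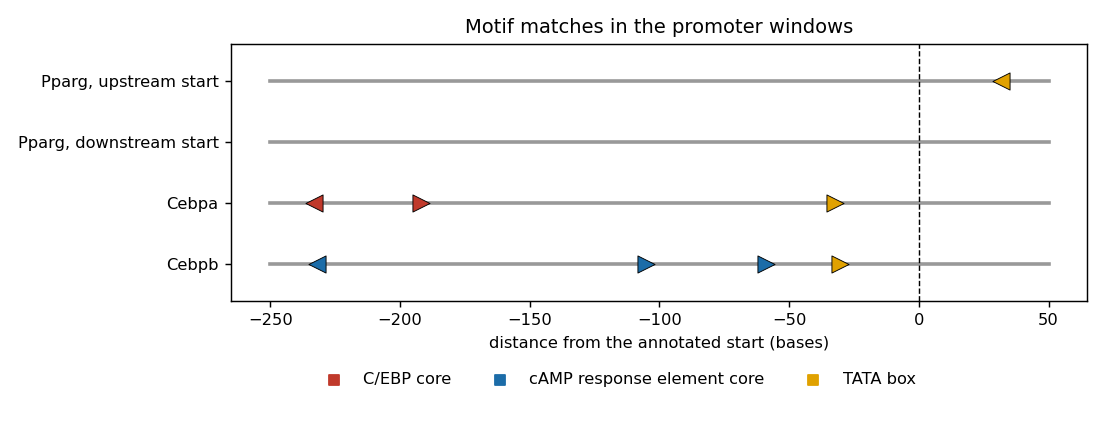
Motif matches in the promoter windows of the 3 genes, by distance from the annotated start in bases; each grey line is 1 window from 250 bases before to 50 after the start, and each triangle is a match that points right on the strand of the gene and left on the opposite strand. The C/EBP cores lie in the Cebpa window, and the 3 cores of the cAMP response element lie in the Cebpb window.

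Libraries held 15105521 to 21484885 counts, and replicates of a group correlated at r = 0.988 to 0.991 over genes in log2 CPM. A level below is the count in CPM on libraries scaled by TMM, given for replicate 1 and then replicate 2. Differences are log2 differences with their standard error (SE) and come with a p-value of edgeR's quasi-likelihood test, adjusted over all 13215 genes; a gene is called past an adjusted p of 0.05. The 95% intervals are not adjusted. Nothing says that the replicates are separate animals or cultures, so a p-value sets a difference only against the spread between these libraries, which is possibly technical. That spread is largely shared over genes, since the test of each gene had 35.4 degrees of freedom and the fit 6 residual ones. A p-value therefore does not rest on the replicate scatter of that gene alone. The other genes of the table have no names in the sources used here, so marker genes of the labelled cell type, targets of these factors and other genes of the pathway were not analysed here.

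Pparg was highest in induced control cells and lowest in cells of unloaded rats. At day 3 it had 39.1 and 37.7 CPM in control cells, 4.74 and 4.50 CPM in 7-day cells and 1.58 and 2.13 CPM in 14-day cells. At day 0 it had 12.8 and 11.9 CPM in control cells, 2.42 and 2.86 CPM in 7-day cells and 2.53 and 1.70 CPM in 14-day cells. Every control library lay above every library of unloaded rats, the uninduced control libraries included. The lowest values rested on few counts. They were 28 counts in the first 14-day library at day 3, with an exact Poisson 95% interval of 18.6 to 40.5, and 36 in the second 14-day library at day 0, with 25.2 to 49.8. These intervals cover counting error only, and they take each count as a separate event. Even numbers were in excess among low counts, and 10 of the 12 Pparg counts were even, 28 and 36 among them. If counts arose 2 at a time, the intervals are too narrow. The source of the even counts was not tested.

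Cebpa had the same ranking of treatments at each day. At day 3 it had 165 and 183 CPM in control cells, 27.9 and 31.7 CPM in 7-day cells and 15.6 and 16.5 CPM in 14-day cells. At day 0 it had 29.3 and 28.3 CPM in control cells, 10.4 and 9.57 CPM in 7-day cells and 6.44 and 5.97 CPM in 14-day cells. The 3 treatments did not overlap at either day, and within each treatment day 3 lay above day 0. How many of all genes separate in these ways, or as Pparg does, was not counted. The separation of libraries is therefore a description only.

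Cebpb varied far less. At day 3 it had 49.6 and 73.3 CPM in control cells, 71.4 and 84.8 CPM in 7-day cells and 77.9 and 76.0 CPM in 14-day cells. At day 0 it had 44.8 and 42.8 CPM in control cells, 56.1 and 56.96 CPM in 7-day cells and 43.9 and 52.4 CPM in 14-day cells. No group mean was below that of uninduced control cells, and at day 3 the control and 7-day libraries overlapped. The replicates of induced control cells stood 1.48-fold apart. None of the 3871 other genes with a mean within 2-fold of that of Cebpb in this group had a larger ratio between these libraries, and their median ratio was 1.05. In the same pair of libraries the ratio was 1.04 for Pparg and 1.11 for Cebpa. Comparisons of Cebpb with induced control cells rest on this pair, and they are given below with and without each library of it.

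**Figure D2:**
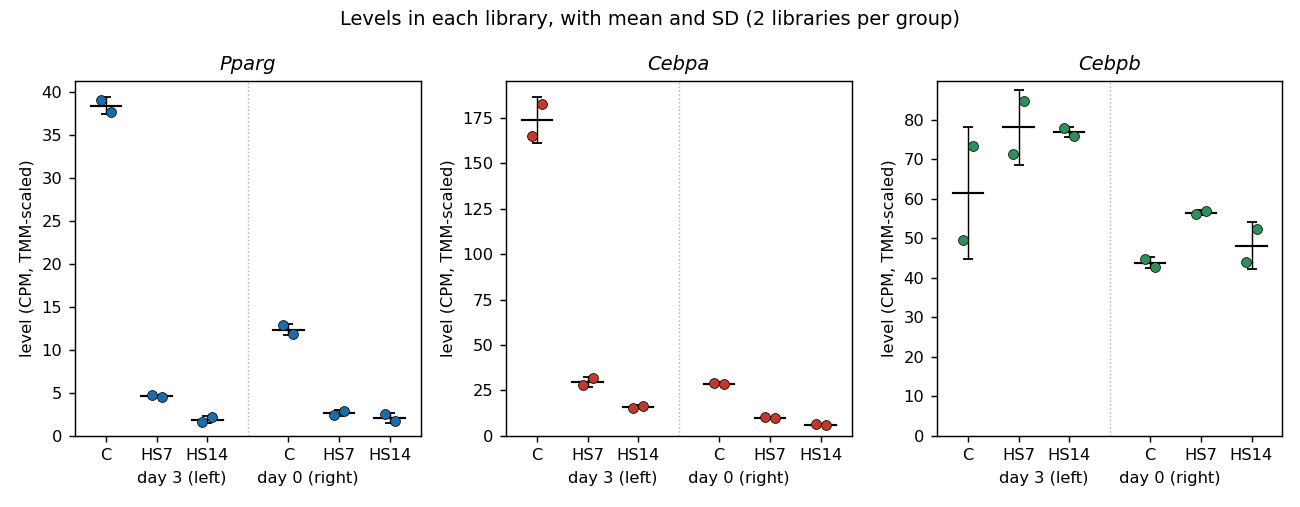
Level of each gene in every library (CPM on TMM-scaled libraries; 1 panel per gene with its own axis from 0), at day 3 on the left and day 0 on the right of each panel, for control cells (C) and cells after 7 (HS7) and 14 (HS14) days of unloading. Points are libraries, horizontal bars are means and error bars are SDs of 2 libraries; Pparg and Cebpa peak in induced control cells (38.4 and 174 CPM on average), and the Cebpb libraries of that group lie apart.

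The first comparison was the response of control cells to induction. It includes 3 days more in culture, since no library came from cells at day 3 without induction. All 3 genes rose, in a comparison where 25.8% of all genes rose and 52.7% were called in either direction. Cebpa rose most, 6.04-fold, to 174 ± 12.5 CPM at day 3, against 28.8 ± 0.690 CPM at day 0 (SD, n = 2 each; log2 difference 2.59, SE 0.09, adjusted p = 2.21e-24). Pparg rose 3.10-fold, to 38.4 ± 0.977 CPM at day 3, against 12.4 ± 0.679 CPM at day 0 (log2 difference 1.63, SE 0.15, adjusted p = 1.20e-11). These rises ranked 285 and 590 from the highest among all genes. Cebpb rose 1.41-fold, to 61.5 ± 16.8 CPM against 43.8 ± 1.36 CPM (log2 difference 0.49, SE 0.11, adjusted p = 0.000274). Without the first control library at day 3 the difference of Cebpb was 0.74 (adjusted p = 4.43e-07), and without the second it was 0.18 and did not pass (adjusted p = 0.211).

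In 7-day cells all 3 genes rose again, beside 24.8% of all genes that rose (51.7% called in either direction). Cebpa rose 2.97-fold to 29.8 ± 2.67 CPM at day 3, against 10.0 ± 0.608 CPM at day 0 (log2 difference 1.57, SE 0.11, adjusted p = 9.30e-15). Pparg rose 1.75-fold to 4.62 ± 0.170 CPM, against 2.64 ± 0.306 CPM (log2 difference 0.81, SE 0.23, adjusted p = 0.00292). Cebpb rose 1.38-fold to 78.1 ± 9.44 CPM, against 56.5 ± 0.628 CPM (log2 difference 0.47, SE 0.11, adjusted p = 0.000401). The induced 7-day cells thus had a mean Cebpa level next to that of uninduced control cells, with a log2 difference of 0.05 (95% interval -0.15 to 0.24, adjusted p = 0.695), a comparison made after the order of the groups had been seen.

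In 14-day cells 2 of the 3 genes rose, beside 27.7% of all genes (55.8% called in either direction). Cebpa rose 2.59-fold to 16.0 ± 0.676 CPM at day 3, against 6.20 ± 0.333 CPM at day 0 (log2 difference 1.37, SE 0.12, adjusted p = 6.22e-12). Cebpb rose 1.595-fold to 76.9 ± 1.33 CPM, against 48.1 ± 5.99 CPM (log2 difference 0.67, SE 0.11, adjusted p = 1.43e-06). Pparg stood at 1.86 ± 0.391 CPM at day 3 and 2.12 ± 0.586 CPM at day 0. Its groups overlapped, and its log2 difference of -0.17 (95% interval -0.71 to 0.36) did not pass (adjusted p = 0.598); it was above 0 without the first library of day 0 (0.13) or of day 3 (0.03). The interval ends below the rise of 0.81 seen in 7-day cells, but the difference between these 2 responses did not itself pass the test, as given below.

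**Figure D3:**
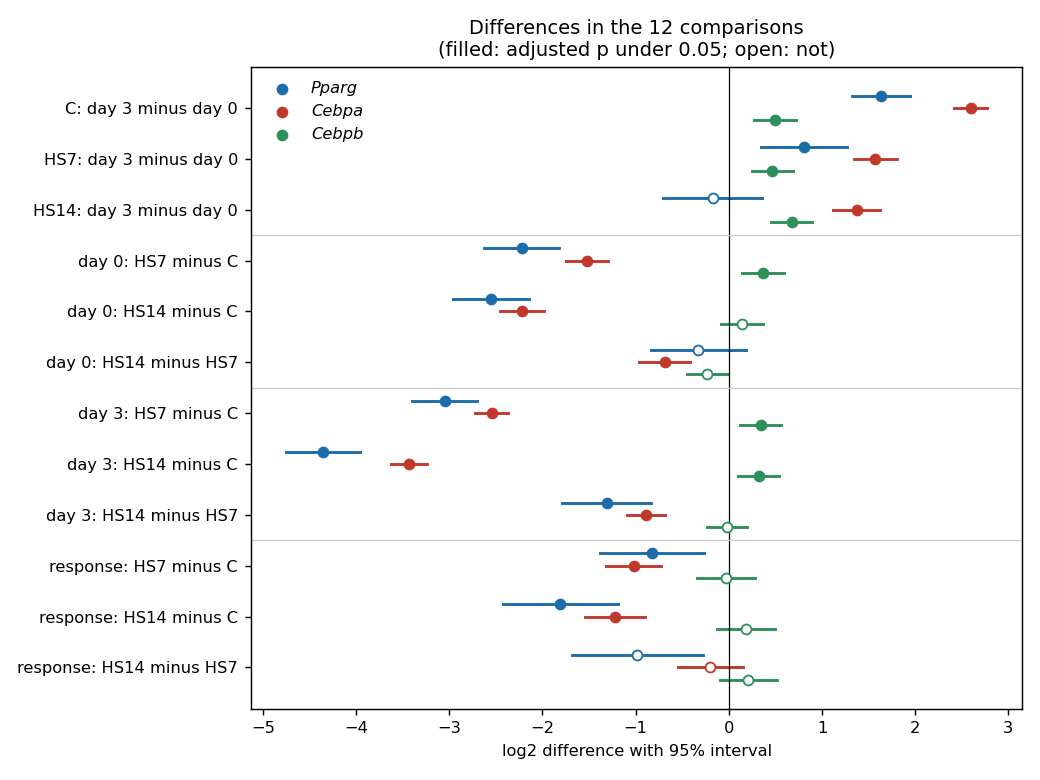
Log2 differences of Pparg, Cebpa and Cebpb in the 12 comparisons, with 95% intervals (lines); filled points passed an adjusted p of 0.05 and open points did not. C, HS7 and HS14 are cells of control rats and of rats after 7 and 14 days of unloading, and a response is the day 3 minus day 0 difference; Pparg and Cebpa lie left of 0 in each comparison of unloaded with control cells, between -4.36 and -1.52 at day 0 and day 3, and Cebpb between 0.14 and 0.37.

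The second question was whether unloading had changed the 3 genes before induction. Pparg and Cebpa were both lower already at day 0 and Cebpb was not. In bulk RNA, fewer cells that express a gene and less of its RNA per cell cannot be told apart, here and below. After 7 days of unloading 2 of the 3 genes were lower, where 11.3% of all genes were lower, and 1 was higher, where 11.7% were. Pparg was 4.67-fold lower (log2 difference -2.22, SE 0.20, adjusted p = 4.09e-11) and Cebpa 2.88-fold lower (-1.52, SE 0.11, adjusted p = 1.74e-13), ranking 90 and 193 from the lowest of all genes. Cebpb was 1.29-fold higher (log2 difference 0.37, SE 0.11, adjusted p = 0.0136), a call lost without the second control library at day 0 (0.34, adjusted p = 0.0922) and with the Wald test of DESeq2 (0.36, adjusted p = 0.181).

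After 14 days of unloading Pparg and Cebpa were again lower at day 0, where 8.89% of all genes were lower. Pparg was 5.86-fold lower (log2 difference -2.55, SE 0.20, adjusted p = 9.12e-13) and Cebpa 4.64-fold lower (-2.22, SE 0.12, adjusted p = 1.35e-17). They ranked 100 and 145 from the lowest. The Cebpb difference of 0.14 (95% interval -0.09 to 0.36) did not pass (adjusted p = 0.475), and the groups overlapped. The comparisons after 7 and 14 days share the control libraries, so they are not independent of each other.

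Between the unloaded groups at day 0, Cebpa was 1.61-fold lower after 14 than after 7 days (log2 difference -0.69, SE 0.14, adjusted p = 0.000397), in a comparison where 6.26% of all genes were lower. Pparg overlapped between them, with a difference of -0.33 (95% interval -0.84 to 0.18, adjusted p = 0.479). The Cebpb groups did not overlap, but the difference of -0.23 did not pass (95% interval -0.45 to -0.01, adjusted p = 0.193).

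The third question was how the induced cells differed, and here Pparg and Cebpa lay furthest from control. After 7 days of unloading Pparg was 8.28-fold lower than in induced control cells (log2 difference -3.05, SE 0.17, adjusted p = 5.58e-17) and Cebpa 5.84-fold lower (-2.55, SE 0.09, adjusted p = 2.15e-23), where 7.43% of all genes were lower. Pparg ranked 96 and Cebpa 131 from the lowest. The 7-day cells thus held 12.05% of the control mean of Pparg and 17.1% of that of Cebpa at day 3; at day 0 they had held 21.4% and 34.7%.

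After 14 days of unloading Pparg was 20.5-fold lower than in induced control cells (log2 difference -4.36, SE 0.19, 95% interval -4.75 to -3.96, adjusted p = 5.31e-20). Cebpa was 10.8-fold lower (-3.44, SE 0.10, 95% interval -3.63 to -3.24, adjusted p = 1.54e-26). In this comparison 15.3% of all genes were lower, and Pparg ranked 69 and Cebpa 106 from the lowest of 13215. By p-value they ranked 45 and 13. The 14-day cells held 4.84% of the control mean of Pparg and 9.23% of that of Cebpa at day 3, against 17.2% and 21.5% at day 0.

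Direct comparison of the induced unloaded groups showed both genes lower after 14 than after 7 days, in a comparison where 11.0% of all genes were lower. Pparg was 2.48-fold lower (log2 difference -1.31, SE 0.24, adjusted p = 6.01e-05) and Cebpa 1.85-fold lower (-0.89, SE 0.10, adjusted p = 1.80e-08). Scaling to the total count moved the median gene of this comparison by -0.11 on the log2 scale, which is small beside both values.

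Cebpb stood slightly above control in induced cells of unloaded rats, by an amount that changed with the library left out. It was called higher after 7 days (1.27-fold, log2 difference 0.34, SE 0.11, adjusted p = 0.0255), where 6.75% of all genes were higher, and after 14 days (1.25-fold, 0.32, SE 0.11, adjusted p = 0.0198), where 16.0% were. Without the first control library at day 3 these differences were 0.087 (adjusted p = 0.744) and 0.066 (adjusted p = 0.718). Without the second they were 0.65 (adjusted p = 5.45e-05) and 0.63 (adjusted p = 5.04e-05). The call after 7 days was also lost without the second 7-day library (0.20, adjusted p = 0.410), and that after 14 days without the first (0.31, adjusted p = 0.105) or second (0.35, adjusted p = 0.0591) 14-day library. Both were lost with the Wald test of DESeq2 (adjusted p = 0.260 and 0.200), and that after 14 days with scaling to the total count (0.21, adjusted p = 0.126). Between 14 and 7 days the log2 difference was -0.02 (95% interval -0.23 to 0.19, adjusted p = 0.922). In no setting tried was Cebpb lower than in induced control cells.

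**Figure D4:**
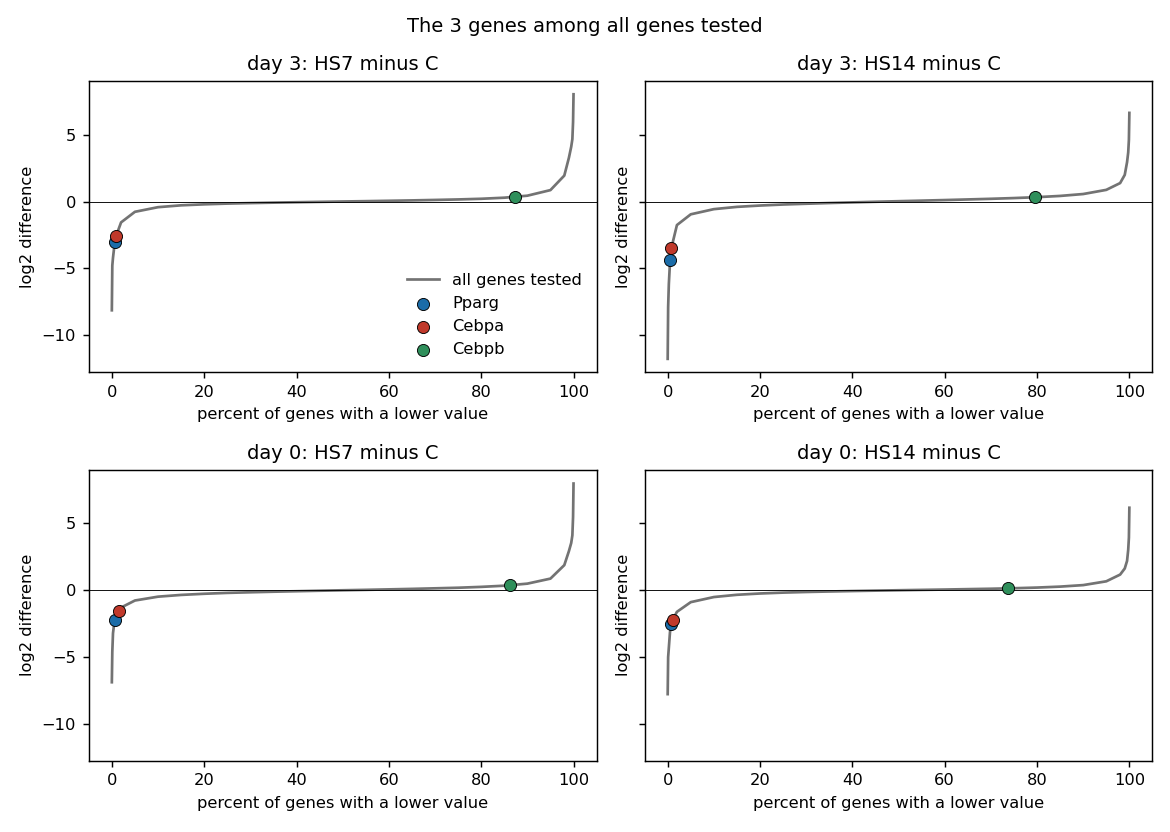
Log2 differences of unloaded from control cells for all 13215 genes tested (grey line, ordered from lowest to highest by the percent of genes with a lower value) and for Pparg, Cebpa and Cebpb (points), at day 3 in the upper row and at day 0 in the lower row, after 7 days of unloading on the left and 14 days on the right. Pparg and Cebpa lie at the low end of each curve, Pparg at rank 69 of 13215 at day 3 after 14 days, and Cebpb lies above 0.

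The responses to induction were then compared directly. The day 3 minus day 0 change of Cebpa was smaller in 7-day than in control cells (the responses differed by -1.02 on the log2 scale, SE 0.15, adjusted p = 2.37e-06) and smaller in 14-day than in control cells (-1.22, SE 0.16, adjusted p = 1.44e-07). Pparg had a smaller response in 14-day than in control cells (-1.81, SE 0.30, adjusted p = 1.87e-05). In 7-day cells the difference of -0.83 (SE 0.28, adjusted p = 0.0491) lay at the threshold and passed or failed with the setting. The adjusted p ranged from 0.0357 to 0.0910 over other settings. With 1 library left out the difference ranged from -0.94 to -0.71. The call was lost without any 1 of the control or 7-day libraries. Leaving out a 14-day library kept it, but those libraries are not part of this comparison. Of all genes, 5.68% had a smaller or more negative response after 7 days and 10.9% after 14 days.

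For Cebpb no difference in response passed the test. The log2 difference was -0.03 after 7 days (95% interval -0.34 to 0.28, adjusted p = 0.946) and 0.18 after 14 days (-0.13 to 0.49, adjusted p = 0.453). Without the first control library at day 3 these values were -0.28 (adjusted p = 0.265) and -0.073 (adjusted p = 0.793). Without the second they were 0.29 (adjusted p = 0.282) and 0.49, of which the 14-day value passed (adjusted p = 0.0146). Between the 14-day and 7-day responses, where 8.58% of all genes were called, none of the 3 genes passed. The difference was -0.98 for Pparg (95% interval -1.69 to -0.28, adjusted p = 0.0740), -0.20 for Cebpa (-0.55 to 0.15, adjusted p = 0.558) and 0.21 for Cebpb (-0.10 to 0.52, adjusted p = 0.465). Without the second 14-day library at day 0 the Pparg value was -1.23 and passed (adjusted p = 0.0437), and without the first it was -0.67 (adjusted p = 0.391).

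Counts of the 3 genes relative to each other shifted with treatment. A ratio of counts within a library depends on transcript length and is read here only between libraries. The count of Cebpa per count of Cebpb at day 3 was 3.32 and 2.49 in control cells, 0.391 and 0.374 in 7-day cells and 0.200 and 0.218 in 14-day cells. At day 0 it was 0.654 and 0.661 in control cells, 0.186 and 0.168 in 7-day cells and 0.147 and 0.114 in 14-day cells. Both induced unloaded groups therefore lay below uninduced control cells in this ratio. The count of Cebpa per count of Pparg at day 3 was 4.22 and 4.85 in control cells, 5.89 and 7.04 in 7-day cells and 9.86 and 7.75 in 14-day cells, so that it was higher in every induced library of unloaded rats than in the induced control libraries. At day 0 it was 2.28 and 2.38 in control cells, 4.30 and 3.35 in 7-day cells and 2.54 and 3.50 in 14-day cells. There too every library of unloaded rats lay above the control libraries, but the closest values were 2.54 and 2.38. The 2.54, of the first 14-day library, rests on a Pparg count of 48. Differences in these ratios were not tested, and how many pairs of genes separate in this way was not counted. The 14-day ratios at day 3 rest on Pparg counts of 28 and 40.

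The order of the groups was tested between neighbours in the same fit, and the pairs outside the comparisons above were chosen after the order had been seen. For Pparg the order was control day 3, control day 0, 7-day cells at day 3, 7-day cells at day 0, 14-day cells at day 0 and 14-day cells at day 3. The last 3 groups overlapped with their neighbours and did not differ past the threshold (adjusted p = 0.479 and 0.598), while uninduced control cells were above induced 7-day cells by 1.42 on the log2 scale (SE 0.18, adjusted p = 1.92e-08). For Cebpa the order was control day 3, 7-day cells at day 3, control day 0, 14-day cells at day 3, 7-day cells at day 0 and 14-day cells at day 0, and only the pair of 7-day cells at day 3 and control day 0 did not differ past the threshold. Uninduced control cells exceeded induced 14-day cells by 0.84 (SE 0.10, adjusted p = 6.59e-09). For Cebpb the order was 7-day cells at day 3, 14-day cells at day 3, control day 3, 7-day cells at day 0, 14-day cells at day 0 and control day 0. Among neighbours a single pair passed, 14-day against control cells at day 3. As given above, this call was lost without the first control library at day 3 and in other settings.

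Over the 12 libraries, log2 CPM of Pparg and Cebpa correlated at r = 0.91 (Spearman 0.80), as a description over 6 groups of 2 libraries. The values were -0.21 (-0.32) for Pparg and Cebpb and 0.18 (0.17) for Cebpa and Cebpb. Beside Pparg, 168 genes were called lower in each of the 4 comparisons of unloaded with control cells, Cebpa among them, or 1.27% of the other genes tested. In the 9 comparisons of 2 groups, 2 other genes shared all calls of Pparg, 9 those of Cebpa and 20 those of Cebpb.

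The genes whose levels ran closest to each factor over the 12 libraries, among 9872 with a mean of at least 5 CPM, are known here by identifier alone. Closest to Pparg was ENSRNOG00000047046 (r = 0.96). At day 3 it had 65.1 ± 6.19 CPM in control cells, 4.74 ± 0.000691 CPM in 7-day cells and 0.715 ± 0.106 CPM in 14-day cells (SD, n = 2 each). At day 0 it had 6.45 CPM in control cells, 1.08 CPM in 7-day cells and 1.46 CPM in 14-day cells on average. Only its control groups had means of at least 5 CPM, and Pparg was also highest there. The limit on the mean thus favours genes with this pattern, and the likeness is a description only. Closest to Cebpa was ENSRNOG00000000158 (r = 0.99), with 109 ± 2.20 CPM at day 3 in control cells, 16.0 ± 1.71 CPM in 7-day cells and 11.0 ± 0.139 CPM in 14-day cells. Closest to Cebpb was ENSRNOG00000022274 (r = 0.95), with 21.2 ± 2.59 CPM at day 3 in control cells, 26.3 ± 4.25 CPM in 7-day cells and 27.1 ± 0.697 CPM in 14-day cells. In the edgeR test at day 3 its difference from control did not pass in 7-day cells (0.30, adjusted p = 0.115). It passed in 14-day cells (0.35, adjusted p = 0.0297). All 3 genes were picked by their correlation, so their levels are a description only.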

How the data were processed

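Poly(A) RNA of 12 libraries was measured, and the authors deposited 1 table of raw counts per Ensembl rat gene identifier. Per the submitters' processing notes, the build was Rnor_6.0 and the tools named are STAR 2.7, featureCounts 1.6.4, FastQC 0.11.9 and DESeq2. The sources used here do not give how they were set (strand, read pairs, annotation release). If strand was not used, overlapping genes can share reads. Even numbers made up 68.3% to 70.6% of low counts (1 to 20), and 10 of 12 counts of Pparg, 12 of Cebpa and 8 of Cebpb were even, so all tests were repeated on halved counts. The Poisson intervals given for Pparg are for the counts before halving.

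With edgeR 4.0.16 (R 4.3.3), low counts were filtered by filterByExpr and libraries scaled by TMM. One fit of 6 group means to the 12 libraries (glmQLFit, glmQLFTest; 6 residual degrees of freedom) gave 9 two-sided comparisons of groups and 3 of responses, with Benjamini-Hochberg adjustment over all genes. SE is the log2 difference over the square root of F. Alternatives were DESeq2 1.42.0, limma-voom (limma 3.58.1), other scalings and filters, halved counts, the groups compared alone, the replicate number as a block and each library left out. The members, gene lists and tests were chosen with earlier results of these data known. The 6 gene lists (101 symbols) could not be used: the reference table paired 0 of the 32622 identifiers with a symbol, and the names of the 3 genes were given with their identifiers. The text names the 3 genes and, by identifier, the gene with the highest Pearson correlation to each (log2 CPM, prior count 2), 1 of the 3 per gene that the rule allowed. Promoters were taken by symbol from RefSeq (GRCr8), not the build of the counts, and the motif cores searched were chosen with the windows in view.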

Additional observations from a re-analysis of the deposited data

Results flagged for a closer look

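The response to induction differed between treatments in 4 cases, by the test of the difference itself (edgeR quasi-likelihood, adjusted over all genes). For Cebpa the log2 difference from the control response was -1.02 in 7-day cells (adjusted p = 2.37e-06) and -1.22 in 14-day cells (adjusted p = 1.44e-07). For Pparg it was -1.81 in 14-day cells (adjusted p = 1.87e-05) and -0.83 in 7-day cells (adjusted p = 0.0491), where the call was lost in 13 of the 21 other settings tried. With 2 libraries per group no test for outlying samples was made. Each library was left out in turn, and the replicate ratio of Cebpb in induced control cells is given above.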

How the results depend on the processing

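Each of the 36 values (3 genes in 12 comparisons) was recomputed in 9 other settings and with each of the 12 libraries left out. All values of Cebpa kept their direction and their side of the threshold, as did those of Pparg in 9 of the 12 comparisons. The other settings changed 5 results. The Pparg response of 7-day minus control cells was -0.82 with DESeq2 size factors in edgeR (adjusted p = 0.0525), -0.81 with the DESeq2 test (0.0774), -0.82 with limma-voom (0.0910), -0.82 with halved counts (0.0824) and -0.83 with the replicate block (0.0573), and did not pass. Cebpb lost its call with the DESeq2 test in 7-day minus control cells at day 0 (0.36) and at day 3 (0.35) and in 14-day minus control cells at day 3 (0.32), and in the last also with scaling to the total count (0.21); that scaling made 14-day minus 7-day cells at day 0 pass (-0.31, adjusted p = 0.0491). The cause was not tested.

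With 1 library left out, its partner being assumed to vary like the other groups, these log2 differences changed their call or sign. For Cebpb they spanned 0.18 to 0.74 (control response), 0.34 to 0.41 (7-day minus control, day 0), 0.087 to 0.65 and 0.066 to 0.63 (7-day and 14-day minus control, day 3), -0.13 to 0.12 (14-day minus 7-day, day 3), and -0.28 to 0.29 and -0.073 to 0.49 (7-day and 14-day response minus control). For Pparg they spanned -0.44 to 0.13 (14-day response), -0.94 to -0.71 (7-day minus control response) and -1.23 to -0.67 (14-day minus 7-day response). The 14-day Pparg response was above 0 without the first library of either day (0.13 and 0.03).

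Same-numbered replicates did not deviate together (r = -0.05 to 0.04 over the 15 pairs of groups), and the block changed no call other than that above. Scaling to the total count moved the median gene by -0.10 in 14-day against control cells at day 3, and gave 30.2% of the called genes there as higher, where TMM gave 51.2%. For 7-day against control cells at day 0 these shares were 62.8% and 50.8%, for 14-day against 7-day cells 20.6% and 46.6% at day 0 and 22.1% and 51.2% at day 3, and for the 14-day against the control response 36.9% and 50.2%. The genes called between 14-day and 7-day cells numbered 1550 at day 0 where omitting HS14 replicate 1 or 2 left 862 or 887, and 2988 at day 3, where omitting replicate 1 left 1848 (HS7) or 1700 (HS14). Between their responses 1134 were called, and omitting 1 library left 672 (HS7 at day 3, replicate 1), 737 (HS14 at day 0, replicate 2) or 646 (HS14 at day 3, replicate 1). The gene closest to Cebpb ranked 21 by Spearman correlation and 28 over the 6 group means, that closest to Cebpa 19 and 2, and that closest to Pparg 3 and 2. Counts over the gene lists were not run, since the identifiers carry no names here. Pparg in cells of unloaded rats is limited by depth, with 28 to 88 counts per library.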
